A study of Mus musculus with 15 samples.

Results

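The lysyl oxidase family was followed in bulk pancreatic islet RNA of transgenic mice, as the 5 genes Lox, Loxl1, Loxl2, Loxl3 and Loxl4, taken by symbol from a count table of 24060 gene entries. All 5 were present and all passed the filter on low counts that left 15460 entries for testing. Islets came from FVB/NJ mice of 9 to 10 weeks, in 5 groups of 3 libraries. Wild-type mice (WT) carried no transgene, hIAPP mice a human IAPP transgene, rIAPP mice a rodent IAPP transgene, hCAST mice a human CAST transgene, and hIAPP_hCAST mice human IAPP together with human CAST. Per the labels the transgenes were driven by an insulin promoter, insulin II where it is named, so that they were expressed in beta cells while RNA was taken from the whole islet. IAPP is islet amyloid polypeptide, a hormone released with insulin, whose human form can aggregate into amyloid and whose rodent form does not. CAST encodes calpastatin, which inhibits calpain proteases. The sources used here name no founder line, litter or colony, so these cannot be told apart from genotype, and nothing states that the 3 libraries of a group came from separate animals. The p-values therefore measure the spread between these libraries, which may be partly technical.

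Lysyl oxidases are secreted, copper-dependent enzymes that oxidise lysine side chains of collagens and elastin, the step that lets these fibres become cross-linked. Lox and Loxl1 are made as proenzymes that are cleaved outside the cell, and Loxl1 is known for its part in elastic fibre upkeep. Loxl2, Loxl3 and Loxl4 share scavenger receptor domains, and Loxl2 is known to act on the basement membrane collagen IV. In the pancreas, stellate cells and fibroblasts are the best known source of fibrous matrix, and islets are enclosed and crossed by basement membranes of their capillaries.

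Library quality touched some of the values below. Total depth was 28287011 to 40191501 counts per library, but reads on Rn45s, Lars2 and Mir6236, which catch ribosomal RNA, took 94.3% of the counts in WT 2, 68.9% in WT 3 and 67.7% in rIAPP 2. These 3, called ribosomal-rich below, kept 1667190, 8796210 and 9510502 other counts, against 30199765 to 40062153 elsewhere. The library hIAPP_hCAST 3 stood apart in another way, with the lowest summed level of acinar markers (6222 CPM) and of stellate and fibroblast markers (163 CPM) of the 15 libraries. Beta cell markers, the insulin genes among them, summed to between 38742 and 124080 CPM in the 15 libraries. Acinar markers, which mark exocrine tissue around the islets, summed to between 6222 and 91292 CPM, and exceeded the beta cell sum in all 3 rIAPP libraries, hIAPP 2 and hIAPP_hCAST 2. CPM are read counts scaled to library size with TMM factors, and TPM here is the deposited length-scaled FPKM set to the same sum in each library without the 3 ribosomal-rich genes. Levels of different genes were compared only as TPM.

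In the authors' build, GRCm38, GENCODE M21 places Lox on chromosome 18 at 52516067 to 52529867 on the minus strand, Loxl1 on chromosome 9 at 58287738 to 58313186 on the minus strand, and Loxl2 on chromosome 14 at 69609068 to 69695834 on the plus strand. Loxl3 lies on chromosome 6 at 83034173 to 83052562 on the plus strand and Loxl4 on chromosome 19 at 42593982 to 42612813 on the minus strand. No stretch of 50 bases was shared between annotated transcripts of any pair of members, so reads of that length could not be split between them. Loxl3 shares 535 exonic bases with Htra2, a protease gene on the opposite strand. Loxl2 shares 301 with the antisense gene Gm27177 and Lox 30 with the antisense gene AC161119.1. Whether counting used strand was not given in the sources used here, so the part of these counts that falls in the shared bases is uncertain.

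Loxl2 was the most abundant member per length in 11 of the 15 libraries, and Loxl1 was in the other 4, which were hIAPP 2 and all 3 rIAPP libraries. Loxl4 was the lowest member in 14 of the 15, the exception being WT 2, where Loxl3 had 0 counts. Loxl2 made up 65.9% ± 2.58 of the family's TPM in WT and 60.6% ± 4.18 in hCAST (SD, n = 3). Its share was 37.6% ± 1.82 in hIAPP, 28.7% ± 2.14 in rIAPP and 55.0% ± 10.8 in hIAPP_hCAST. The share of Loxl1 was 22.9% ± 1.58 in WT, 24.8% ± 1.20 in hCAST, 38.2% ± 2.17 in hIAPP, 44.2% ± 2.47 in rIAPP and 23.3% ± 4.33 in hIAPP_hCAST. Thus the family in control islets was mostly Loxl2, and in islets with either IAPP transgene alone it was Loxl1 and Loxl2 in more equal parts.

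**Figure D1:**
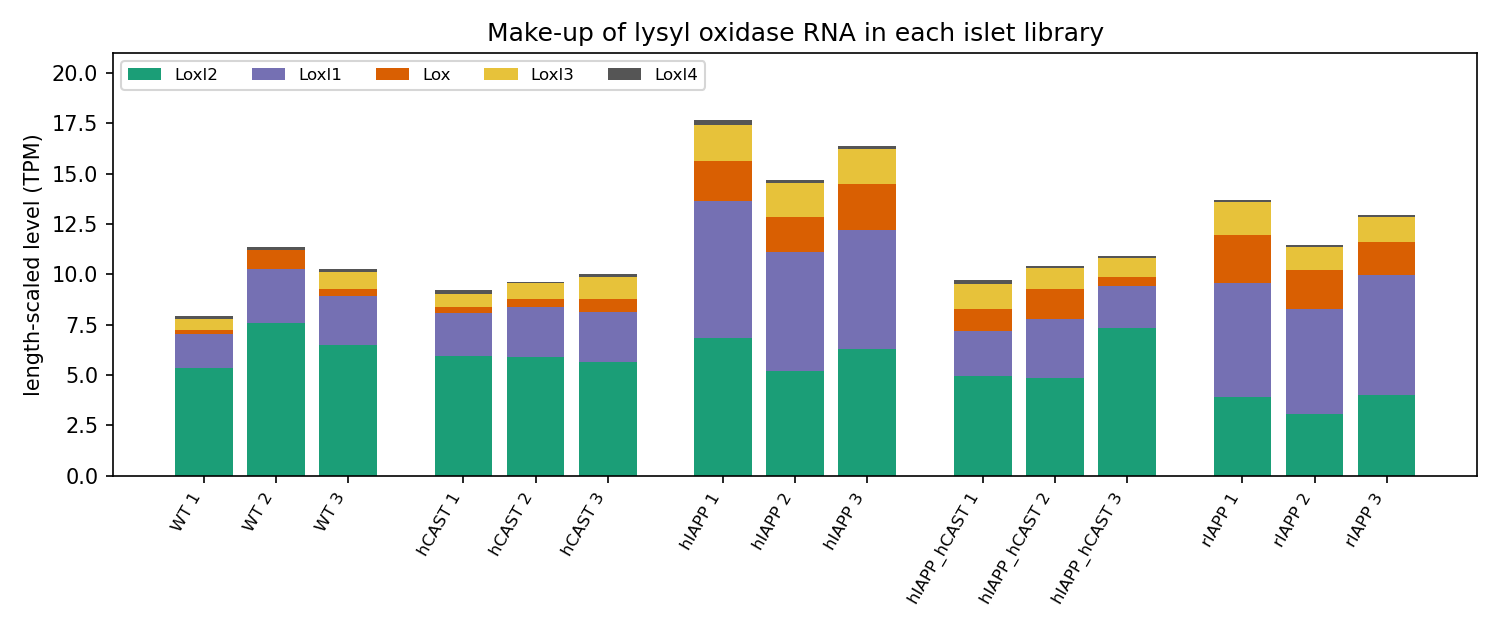
Stacked bars give the TPM of the 5 family members in each of the 15 libraries, by group and replicate number. The family sum was 14.7 to 17.6 TPM in hIAPP and 7.92 to 11.4 in WT, and the Loxl1 layer was wider than the Loxl2 layer in hIAPP 2 and in all rIAPP libraries.

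The same shift was seen in the ratio of Loxl1 to Loxl2 TPM, which was 0.311, 0.353 and 0.382 in WT 1, 2 and 3 and 0.365, 0.425 and 0.444 in hCAST. It was 0.993, 1.13 and 0.932 in hIAPP and 1.45, 1.71 and 1.48 in rIAPP. In hIAPP_hCAST it was 0.456, 0.593 and 0.283, below all hIAPP libraries and lowest in the library that stood apart. Each hIAPP library lay above all WT, hCAST and hIAPP_hCAST libraries, and each rIAPP library lay above all hIAPP libraries. These ratios are levels within a library and were not tested.

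The family total in TPM was 14.7 to 17.6 in hIAPP, 11.4 to 13.7 in rIAPP, 9.71 to 10.9 in hIAPP_hCAST, 9.20 to 10.0 in hCAST and 7.92 to 11.4 in WT. The hIAPP libraries lay above all others, and the rIAPP libraries above all hCAST, hIAPP_hCAST and WT libraries, with rIAPP 2 only just above WT 2.

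Against WT, 3 of the 5 members rose in hIAPP islets and 0 fell, where 11.9% of all tested genes were called at an adjusted p below 0.05 (6.27% higher, 5.59% lower). These were Lox, Loxl1 and Loxl3, and for the same 3 the groups did not overlap, as for 33.1% of all genes. In rIAPP islets 3 members rose and 1 fell against WT, where 23.3% of all genes were called (10.7% higher, 12.6% lower), and all 5 were without overlap, as 40.6% of all genes were. Lox, Loxl1 and Loxl3 were higher and Loxl2 was lower. The pair of comparisons shares the WT libraries, so that they are not independent of each other. In bulk RNA, more cells of a type and more RNA per cell cannot be told apart in these differences.

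In hCAST islets 0 of 5 members differed from WT, where 0.0194% of genes were called by edgeR (3 genes, all higher, 0% lower), with 1133 at an unadjusted p under 0.05. For Loxl2 alone the hCAST and WT libraries did not overlap, as for 14.2% of all genes. With hCAST as the second group without an IAPP transgene, 2 members were higher and 1 was lower in rIAPP, where 22.4% of genes were called (10.6% higher, 11.8% lower). There 4 of 5 members did not overlap, as 45.7% of all genes did not.

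Directly compared, 1 member, Loxl2, was higher in hIAPP than in rIAPP and 0 were lower, where 13% of genes were called (7.71% higher, 5.28% lower). Loxl2, Loxl3 and Loxl4 were without overlap there, as were 35.5% of all genes. In hIAPP_hCAST islets 1 member, Loxl1, was lower than in hIAPP, where 0.466% of genes were called (0.0906% higher, 0.375% lower). Lox, Loxl1 and Loxl3 did not overlap between these groups, which held for 15.9% of all genes. Against hCAST, 0 of 5 members passed in hIAPP_hCAST, where 0.75% of genes were called (0.517% higher, 0.233% lower), and 0 members were without overlap, beside 13.3% of all genes. The interaction asks whether the human IAPP difference was the same with and without the CAST transgene. It gave 0 of 5 members and 0% of all genes by edgeR, with 1346 genes at an unadjusted p under 0.05 and 48 genes called by DESeq2.

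**Figure D2:**
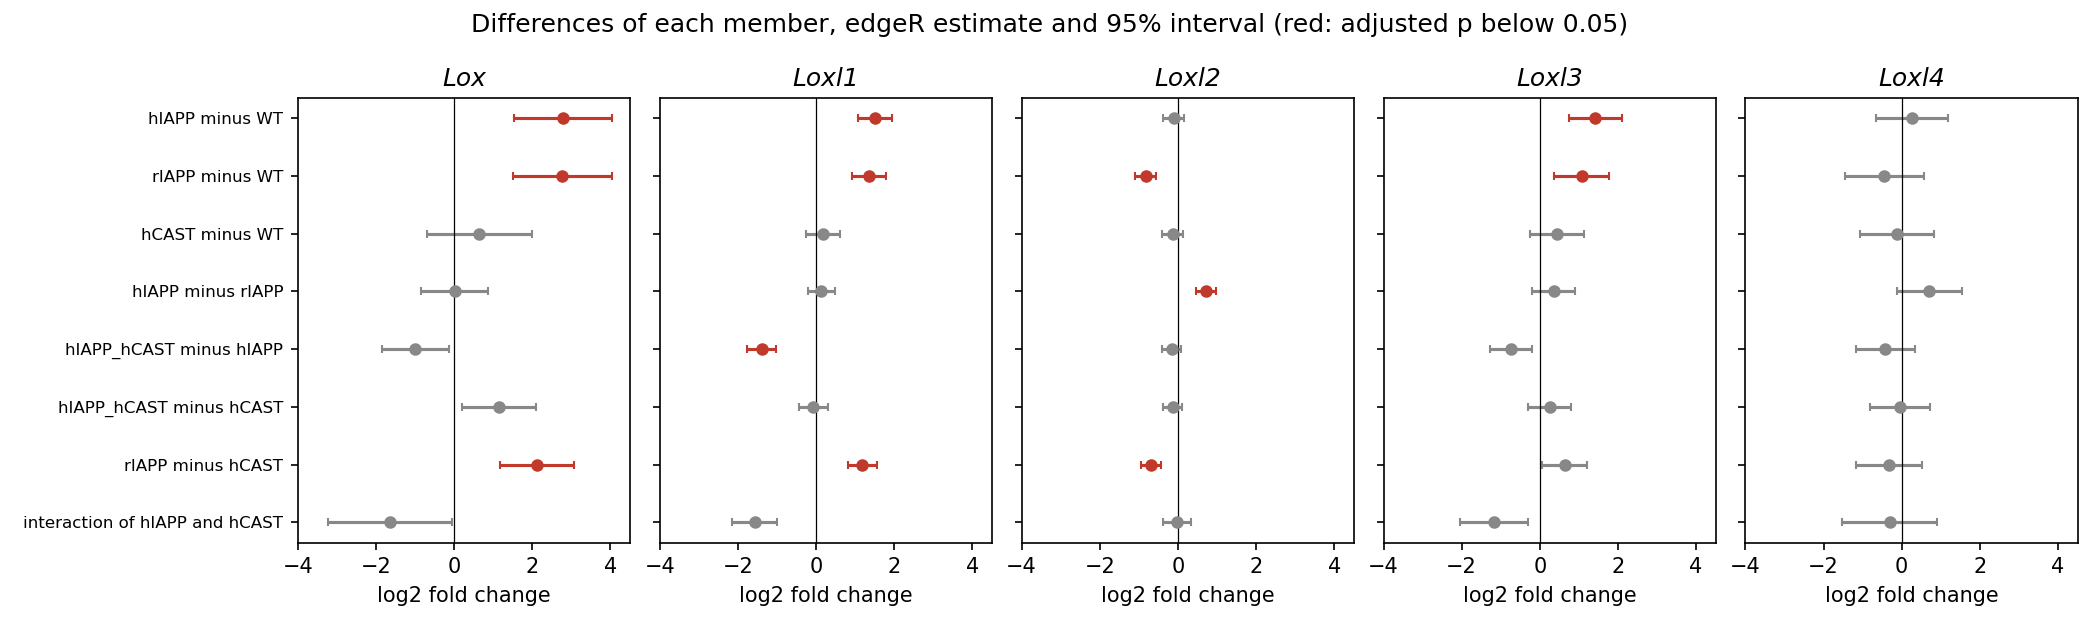
Each point is the edgeR log2 fold change of a member (panel) in a comparison (row), with its 95% interval, in red where the adjusted p was below 0.05. Lox, Loxl1 and Loxl3 lie to the right of 0 in both comparisons with WT, Loxl2 stands out only in the comparisons that hold rIAPP, and Loxl1 alone is red in the comparison of hIAPP_hCAST with hIAPP.

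Loxl1, the family member known for elastic fibres, was called in both comparisons with WT and in hIAPP_hCAST against hIAPP. Its levels were 9.63, 9.48 and 7.97 CPM in hIAPP 1, 2 and 3 and 7.99, 7.99 and 8.57 CPM in rIAPP. They were 2.75, 4.38 and 3.55 CPM in WT, 3.22, 3.71 and 3.86 CPM in hCAST, and 3.24, 4.51 and 2.59 CPM in hIAPP_hCAST. All 6 libraries with an IAPP transgene alone lay above all 9 others, and the hIAPP_hCAST libraries overlapped those of WT and hCAST. By group mean the order was hIAPP (9.03 ± 0.918), rIAPP (8.19 ± 0.334), hCAST (3.60 ± 0.336), WT (3.56 ± 0.813) and hIAPP_hCAST (3.44 ± 0.979 CPM; SD, n = 3). Neither the first 2 nor the last 3 groups in that order differed beyond their spread.

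Against WT, Loxl1 was higher by 1.50 on the log2 scale in hIAPP (95% interval 1.07 to 1.93, adjusted p = 0.000360), a 2.83-fold difference. In rIAPP it was higher by 1.36 (0.93 to 1.80, adjusted p = 0.000146). Both calls held under every alternative that kept more than 1 WT library, including each fit without 1 library. The fit without the 3 ribosomal-rich libraries kept only WT 1, so it holds no spread between WT libraries. Against hCAST, Loxl1 was higher by 1.19 in rIAPP (0.82 to 1.55, adjusted p = 0.000103). Between hIAPP and rIAPP it did not pass, with a difference of 0.14 (-0.21 to 0.49, adjusted p = 0.685).

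Loxl1 was also the member called between hIAPP_hCAST and hIAPP, lower by a log2 fold change of -1.39 (95% interval -1.75 to -1.03, adjusted p = 0.00125), to 0.380 of the hIAPP level. By p it ranked 4 of the 15460 genes tested. Without hIAPP_hCAST 3 the difference was -1.22 (adjusted p = 0.00112). With the spread taken from these 2 groups alone it was -1.38 and no longer passed (adjusted p = 0.174). Neither did it pass in the 2 fits on deposited FPKM, where the median of all genes in this comparison was 0.04 and 0.05. Against hCAST, Loxl1 in hIAPP_hCAST differed by -0.07 (-0.44 to 0.30, adjusted p = 0.973).

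The interaction for Loxl1 was -1.57 (95% interval -2.14 to -1.01), ranking 2 among all genes by p. Its unadjusted p was 2.04e-05 and its adjusted p 0.158, so it was not called by edgeR. DESeq2 gave -1.57 with an adjusted p of 0.00135, and voom with sample weights gave -1.60 with an adjusted p of 0.0448. Without hIAPP_hCAST 2 it was -1.82 with an adjusted p of 0.00971, and over all alternatives the adjusted p ran from 0.00135 to 0.593.

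**Figure D3:**
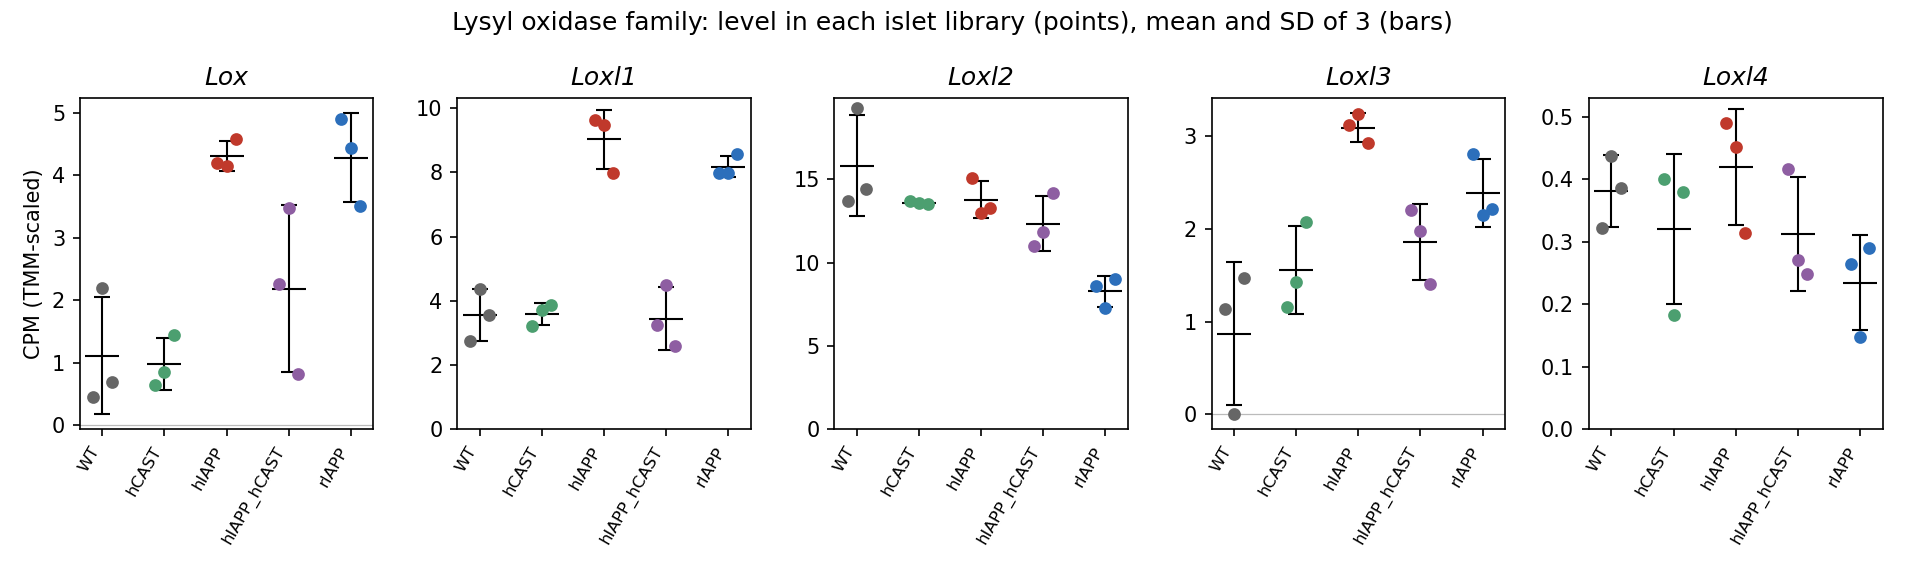
Each panel shows a member's CPM in the 15 libraries as points by group, with the mean and SD of 3 as bars. Loxl1 in hIAPP and rIAPP lies between 7.97 and 9.63 CPM, above all other libraries, and Loxl2 in rIAPP lies between 7.25 and 9.00 CPM, below all other libraries.

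Lox, which gives the family its name and acts on fibrillar collagens and elastin, was scarce in control islets. Its levels were 0.452, 2.19 and 0.694 CPM in WT 1, 2 and 3, resting on 21, 5 and 9 counts, and 0.640, 0.842 and 1.45 CPM in hCAST. They were 4.19, 4.16 and 4.59 CPM in hIAPP, 4.91, 4.44 and 3.50 CPM in rIAPP, and 2.25, 3.48 and 0.810 CPM in hIAPP_hCAST. The hIAPP and rIAPP libraries lay above all WT and hCAST libraries, while hIAPP_hCAST ran from the control range almost to the lowest rIAPP library. The order of group means was hIAPP (4.31 ± 0.238), rIAPP (4.28 ± 0.714), hIAPP_hCAST (2.18 ± 1.34), WT (1.11 ± 0.941) and hCAST (0.976 ± 0.420 CPM; SD, n = 3). Within that order hIAPP and rIAPP did not differ beyond their spread, and neither did WT and hCAST.

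Against WT, Lox was higher by 2.78 on the log2 scale in hIAPP (95% interval 1.53 to 4.03, adjusted p = 0.00883) and by 2.77 in rIAPP (1.50 to 4.04, adjusted p = 0.00378). The low counts of WT make these intervals wide, and WT 1 was the only WT library not rich in ribosomal reads. Without WT 1 the differences were 2.14 in both comparisons and did not pass (adjusted p = 0.0987 and 0.0730). In the fit without the 3 ribosomal-rich libraries the hIAPP difference was 3.24 and did not pass either (adjusted p = 0.0716). Measured against hCAST, whose 3 libraries were all deep, Lox was higher by 2.14 in hIAPP (adjusted p = 0.00895, a comparison added after the data were seen) and by 2.13 in rIAPP (1.18 to 3.07, adjusted p = 0.00315).

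Between hIAPP and rIAPP, Lox differed by 0.01 (95% interval -0.85 to 0.87, adjusted p = 0.995). In hIAPP_hCAST it was below hIAPP with no overlap between the groups, a log2 fold change of -0.995 (-1.86 to -0.13) that did not pass (adjusted p = 0.353). Against hCAST it was 1.14 (0.20 to 2.08, adjusted p = 0.378). Without hIAPP_hCAST 3, the library low in stellate markers, that difference was 1.55 and passed (adjusted p = 0.0116). The interaction was -1.64 (-3.23 to -0.05, adjusted p = 0.556).

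Loxl3, a member known for its part in palate and spine development, was low in all groups, and it shares exonic bases with Htra2 (4501 counts over the 15 libraries). Its levels were 1.14, 0 and 1.47 CPM in WT 1, 2 and 3, and the 0 counts in the shallow WT 2 allow up to 1.31 CPM at a floor of 3 counts. They were 1.16, 1.43 and 2.07 CPM in hCAST, 3.12, 3.23 and 2.92 CPM in hIAPP, 2.80, 2.15 and 2.21 CPM in rIAPP, and 2.20, 1.97 and 1.40 CPM in hIAPP_hCAST. The hIAPP libraries lay above all others and the WT libraries were among the lowest, with rIAPP and hIAPP_hCAST overlapping between them. In order of group means, Loxl3 was 3.09 ± 0.156 in hIAPP, 2.39 ± 0.363 in rIAPP, 1.86 ± 0.410 in hIAPP_hCAST, 1.55 ± 0.470 in hCAST and 0.868 ± 0.769 CPM in WT (SD, n = 3), and no pair of neighbours below hIAPP was separated without overlap.

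Against WT, Loxl3 was higher by 1.42 in hIAPP (95% interval 0.74 to 2.10, adjusted p = 0.0100) and by 1.07 in rIAPP (0.37 to 1.76, adjusted p = 0.0262). The hIAPP call was lost without WT 1 (1.39, adjusted p = 0.0675) and when the 3 ribosomal-rich libraries were left out (1.43, adjusted p = 0.0652). The rIAPP call was lost without WT 1 (adjusted p = 0.128), without rIAPP 1 (adjusted p = 0.103) and without the 3 libraries (adjusted p = 0.0851). Against hCAST, Loxl3 was higher by 0.99 in hIAPP (adjusted p = 0.0295) and by 0.64 in rIAPP, where it did not pass (adjusted p = 0.104; 0.90 and adjusted p = 0.0410 without hCAST 3). In hIAPP_hCAST it differed from hIAPP by -0.74 (-1.28 to -0.20) with no overlap, and did not pass (adjusted p = 0.244). The interaction was -1.17 (-2.05 to -0.29, adjusted p = 0.440).

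Loxl2, the collagen IV-directed member, followed another pattern. It was at 13.7, 19.3 and 14.4 CPM in WT 1, 2 and 3, 13.7, 13.6 and 13.5 CPM in hCAST, and 15.1, 12.99 and 13.3 CPM in hIAPP. It was at 11.0, 11.8 and 14.2 CPM in hIAPP_hCAST and at 8.58, 7.25 and 9.00 CPM in rIAPP. Every rIAPP library lay below every other library, hCAST lay just below WT, and the hIAPP libraries overlapped those of WT, hCAST and hIAPP_hCAST. In order of group means it was 15.8 ± 3.02 in WT, 13.8 ± 1.12 in hIAPP, 13.6 ± 0.0976 in hCAST, 12.3 ± 1.63 in hIAPP_hCAST and 8.28 ± 0.911 CPM in rIAPP (SD, n = 3), and only rIAPP was separated from its neighbour.

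Loxl2 in rIAPP differed from WT by -0.83 on the log2 scale (95% interval -1.11 to -0.55, adjusted p = 0.000217), to 0.563 of the WT level, and from hCAST by -0.70 (-0.95 to -0.44, adjusted p = 0.000456). In hIAPP it was higher than in rIAPP by 0.72 (0.46 to 0.97, adjusted p = 0.000558), so the human and rodent transgene lines differed in this member by a direct test. These 3 calls held in every count-based alternative, and each was lost in the fits on deposited FPKM, whose scale holds the ribosomal reads. Against WT, hIAPP differed by -0.11 (-0.38 to 0.16, adjusted p = 0.810) and hCAST by -0.13 (-0.40 to 0.14, adjusted p = 0.934). In hIAPP_hCAST Loxl2 differed from hIAPP by -0.16 (-0.40 to 0.08, adjusted p = 0.678), and the interaction was -0.03 (-0.39 to 0.34, adjusted p = 0.989).

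Loxl4 was near the limit of these libraries, at 0.148 to 0.491 CPM and 1 to 26 counts per library. Group means ran from 0.419 ± 0.0929 CPM in hIAPP through 0.382 ± 0.0577 in WT, 0.321 ± 0.120 in hCAST and 0.312 ± 0.0910 in hIAPP_hCAST to 0.234 ± 0.0759 in rIAPP (SD, n = 3). Each group overlapped its neighbours in that order. The rIAPP libraries lay below those of WT and of hIAPP without overlap, but neither difference passed (-0.45, adjusted p = 0.546, and 0.71 for hIAPP minus rIAPP, adjusted p = 0.289). No Loxl4 difference passed in any of the 8 comparisons, and with so few counts intervals were wide, as in the -0.67 to 1.19 of hIAPP minus WT.

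Genes of stellate cells and fibroblasts moved with Lox and Loxl1. The 11 markers (Pdgfra, Pdgfrb, Dcn, Lum, Thy1, Dpt, Col6a1, Col6a2, Col6a3, Mgp and Vim) summed to 510 to 581 CPM in hIAPP and 452 to 482 in rIAPP. The sum was 168 to 249 CPM in WT, 201 to 305 in hCAST and 163 to 339 in hIAPP_hCAST. Of the 11, 8 rose in hIAPP and 8 in rIAPP against WT, with medians of 1.36 and 1.005 beside 0.02 and 0.01 for all genes. Between hIAPP_hCAST and hIAPP 1 of the 11 passed, which was the matrix Gla protein gene Mgp, at -0.98 (adjusted p = 0.00242). Without hIAPP_hCAST 3 it was 3 of the 11, and against WT without the 3 ribosomal-rich libraries 4 rose in hIAPP and 3 in rIAPP, at medians of 1.56 and 1.24.

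Set against that marker sum, a measure chosen after the values were seen, Loxl1 stood at 1.49 to 1.76 per 100 CPM of markers in WT, 1.27 to 1.70 in hCAST, 1.56 to 1.85 in hIAPP, 1.66 to 1.90 in rIAPP and 0.976 to 1.59 in hIAPP_hCAST. All of these ranges overlapped one another, except that hIAPP_hCAST lay below rIAPP. Lox per 100 CPM of these markers was 0.722 to 0.900 in hIAPP and 0.775 to 1.02 in rIAPP. Both ranges lay above 0.319 to 0.475 in hCAST and above WT 1 and 3 (0.268 and 0.292), while WT 2 reached 0.880 on its 5 counts. In hIAPP_hCAST it was 0.498 to 1.03, also above hCAST and overlapping both hIAPP and rIAPP. For Loxl3 the ratios of hIAPP and rIAPP were not above those of the other groups, at 0 to 0.677 in WT, 0.578 to 0.681 in hCAST, 0.537 to 0.629 in hIAPP, 0.472 to 0.581 in rIAPP and 0.583 to 0.862 in hIAPP_hCAST. The part of these cells in the differences of Loxl1, Lox and Loxl3 was not tested.

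Loxl2 did not follow the stellate markers. Per 100 CPM of them it was 6.07 to 8.16 in WT, 4.43 to 6.82 in hCAST, 3.32 to 8.71 in hIAPP_hCAST, 2.53 to 2.60 in hIAPP and 1.60 to 1.99 in rIAPP. The beta cell markers (Ins1, Ins2, Ucn3, Mafa, Slc2a2, Nkx6-1, Pdx1, G6pc2 and Slc30a8) were lowest in the same group as Loxl2. They summed to 38742 to 50341 CPM in rIAPP, 72970 to 83282 in hIAPP, 68589 to 83428 in hIAPP_hCAST, 92126 to 102481 in hCAST and 113881 to 124080 in WT. Most of this sum was insulin RNA. Ins1 and Ins2 had means of 52710 and 62226 CPM in WT and 19464 and 24817 CPM in rIAPP. A level set against this sum is thus mainly a level per insulin RNA. Against WT, 9 of 9 were lower in rIAPP (median -1.44) and 7 of 9 in hIAPP (median -0.62). Per 100000 CPM of these markers Loxl2 was 17.7 to 18.7 in rIAPP, 17.1 to 18.2 in hIAPP, 13.2 to 18.2 in hIAPP_hCAST, 13.3 to 14.6 in hCAST and 11.2 to 15.5 in WT, so that rIAPP, lowest in CPM, was among the highest on this scale. Acinar marker sums were higher in rIAPP than in any WT library, at 63810 to 88707 CPM beside 10705 to 48543. The part of beta and acinar cells in the Loxl2 difference was not tested.

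**Figure D4:**
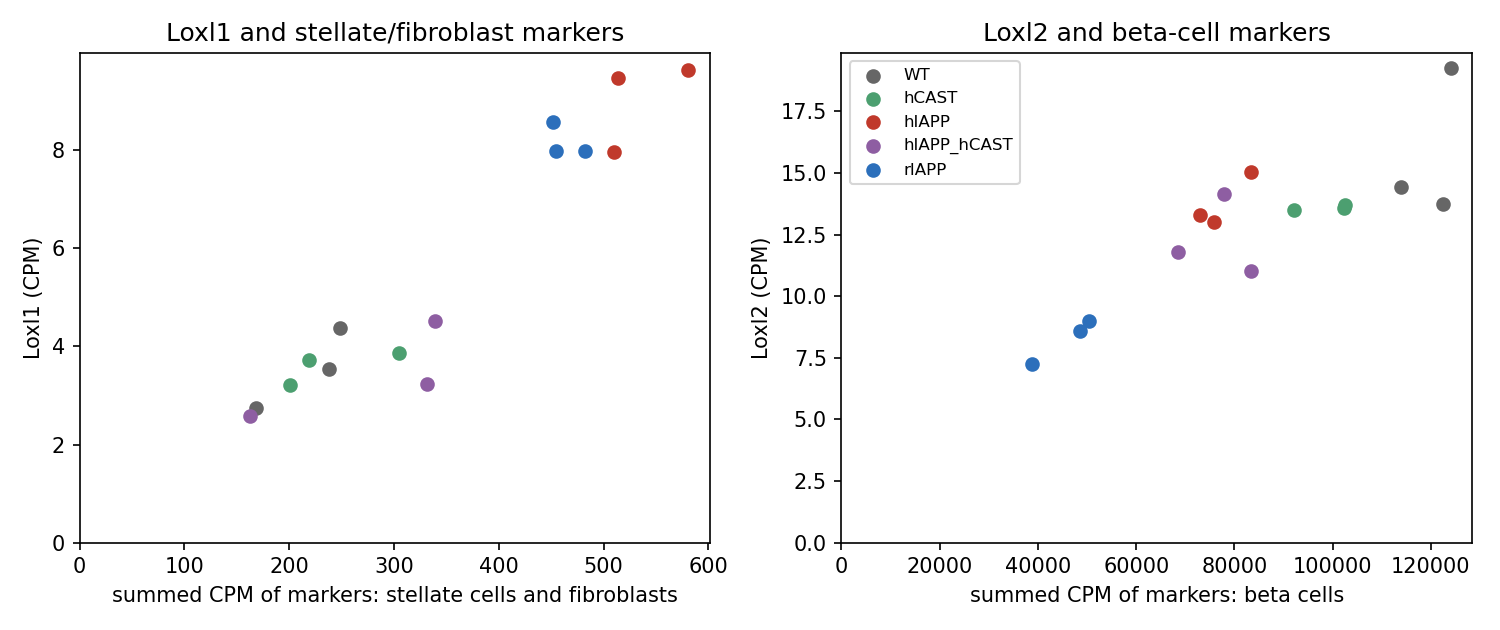
Left, the CPM of Loxl1 against the summed CPM of 11 stellate and fibroblast markers, and right, the CPM of Loxl2 against the summed CPM of 9 beta cell markers, with 1 point per library coloured by group. The hIAPP and rIAPP libraries sit together at the upper right for Loxl1, while for Loxl2 the rIAPP libraries sit alone at the lower left.

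Other cell types moved in some of the same comparisons, where 11.9% of all genes were called in hIAPP and 23.3% in rIAPP against WT. Macrophage markers summed to 288 to 409 CPM in hIAPP, 164 to 279 in hIAPP_hCAST, 108 to 115 in hCAST, 71.4 to 106 in WT and 61.3 to 81.5 in rIAPP, and 9 of 11 rose in hIAPP against WT. In rIAPP 0 rose and 1 fell, the complement gene C1qa (-1.16, adjusted p = 0.000789). Of 9 pericyte and smooth muscle markers, 8 rose in hIAPP and 2 in rIAPP. Of 10 endothelial markers, 0 rose and 1 fell in hIAPP, and 8 rose in rIAPP. Schwann cell markers rose in 3 of 7 and 1 of 7 cases, duct markers in 3 of 10 in each with 1 lower in rIAPP, and lymphocyte markers in 2 of 3 and 0 of 3. Acinar markers were called in 0 of 14 and 1 of 14 at medians of 1.003 and 1.32, and the 1 called was the transcription factor gene Bhlha15, higher in rIAPP (adjusted p = 0.000435). Their sums were 10705 to 48543 CPM in WT, 29315 to 61752 in hCAST, 40664 to 89156 in hIAPP, 6222 to 91292 in hIAPP_hCAST and 63810 to 88707 in rIAPP. The rIAPP libraries thus lay above all WT and hCAST libraries, and the hIAPP libraries overlapped both. Markers of alpha, delta and PP cells were called in 0 of 7 in hIAPP, and 1 of 7 was higher and 1 lower in rIAPP. The mesothelial gene Msln had a mean of 171 CPM in rIAPP (SD 27.4) against 18.2 in WT (SD 4.86), a log2 fold change of 3.15 (adjusted p = 1.53e-06). The other 4 mesothelial markers (Upk3b, Lrrn4, Wt1 and Krt5) did not pass the filter on low counts, and in the rIAPP libraries each lay between 0 and 0.114 CPM. Between hIAPP_hCAST and hIAPP, 3 of 9 pericyte and smooth muscle markers were lower (median -0.51), beside a stellate and fibroblast median of -1.05. Of 10 endothelial markers 1 was lower (median -0.34), and of 3 lymphocyte markers 1 was higher. Macrophage markers were called in 0 of 11 (median -0.58) and Schwann cell markers in 0 of 7 (median -0.53). Over all genes, 0.466% were called there. The part of these cell types in the members' differences was not tested.

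Substrates and partners of the family were read from lists of related genes, by how many passed in each direction. Over all tested genes, 11.9% were called in hIAPP minus WT (6.27% higher, 5.59% lower). In rIAPP minus WT it was 23.3% (10.7% higher, 12.6% lower). Of 9 tested fibrillar collagen genes, 6 rose in hIAPP and 7 in rIAPP against WT, with medians of 1.67 and 1.32. Col5a1, a chain of the collagen that seeds fibrils, was at 4.45, 6.57 and 10.3 CPM in WT and 23.2, 23.7 and 20.3 CPM in hIAPP, with no overlap (log2 fold change 1.72 ± 0.346 SE, adjusted p = 0.00871). Col5a2 and Col5a3, chains of the same collagen, were higher by 1.70 and 1.85. In rIAPP the smallest p belonged to Col27a1 (0.68 ± 0.138 SE, adjusted p = 0.00175), Col1a2 (1.94) and Col5a1 (1.46). Without the 3 ribosomal-rich libraries 1 of 9 rose in hIAPP and 3 in rIAPP, at medians of 2.11 and 1.75, and with hCAST as the control 3 rose in hIAPP, at a median of 1.04.

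Of 6 collagen IV chains, the substrate class of Loxl2, 2 rose in each comparison, and these were Col4a1 and Col4a2. The list medians were 0.62 in hIAPP and 0.49 in rIAPP. Leaving out the 3 ribosomal-rich libraries, which kept only WT 1, they were 0.90 and 0.81. Col4a1 was at 205, 233 and 296 CPM in WT 1, 2 and 3, at 476, 412 and 395 CPM in hIAPP and at 418, 351 and 367 CPM in rIAPP, so that both groups lay above WT. In hIAPP it was higher by 0.80 (adjusted p = 0.00886), and in rIAPP it was higher by 0.63 (adjusted p = 0.0152). In rIAPP, then, Loxl2 was lower than in WT while both of these chains were higher.

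Of 17 elastic fibre genes, 7 rose in hIAPP and 8 in rIAPP, with medians of 0.91 and 0.98 and 0 falling. Ltbp1, which tethers latent TGF-beta to fibres, was at 8.24, 14.4 and 9.10 CPM in WT and 28.4, 22.5 and 25.8 CPM in hIAPP (log2 fold change 1.45 ± 0.218 SE, adjusted p = 0.00105). Emilin1, an elastic fibre glycoprotein, was higher by 0.91 in hIAPP and 0.93 in rIAPP. Mfap5 and Mfap4, microfibril proteins, were higher by 2.37 in hIAPP and 3.06 in rIAPP respectively, and Efemp2, the fibulin that brings Lox to elastin, by 0.90 in rIAPP (adjusted p = 3.18e-05). Eln, elastin itself, was higher by 1.63 in hIAPP (adjusted p = 0.0288) and by 1.33 in rIAPP (adjusted p = 0.0401), and Fbln5, the fibulin that binds Loxl1, by 1.16 in rIAPP (adjusted p = 0.00905). Leaving out the 3 ribosomal-rich libraries, 3 of 17 rose in each comparison, at medians of 1.16 and 1.22.

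Of 10 tested genes that process procollagen or Lox itself, 3 rose in hIAPP against WT, and these were Fn1, Adamts2 and Postn. Fn1, which encodes fibronectin, a scaffold for Lox activation, was at 1.85, 1.31 and 3.16 CPM in WT 1, 2 and 3, at 16.3, 16.5 and 13.8 CPM in hIAPP and at 3.03, 3.48 and 4.44 CPM in rIAPP. The hIAPP libraries lay far above both other groups (against WT 2.80 ± 0.280 SE, adjusted p = 4.02e-05, and against rIAPP 2.08 ± 0.232 SE, adjusted p = 1.68e-05). Adamts2, the procollagen N-proteinase, was higher by 1.40 in hIAPP and 1.77 in rIAPP, and Postn, periostin, by 1.34 in hIAPP (adjusted p = 0.0350). Leaving out the 3 ribosomal-rich libraries, 1 of the 10 rose in hIAPP, and 4 rose and 1 fell in rIAPP.

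In rIAPP 4 of these 10 rose and 1 fell. Fmod, fibromodulin, which binds collagen and Lox, was at 2.69, 2.74 and 2.97 CPM in rIAPP 1, 2 and 3, and between 0.172 and 0.775 CPM in the WT and hIAPP libraries. Against WT it was higher by 3.78 in rIAPP (adjusted p = 0.000135). Pcolce, the enhancer of procollagen C-proteinase, was higher by 1.83, and Adamts14 was called higher as well (adjusted p = 0.0352), with 0 counts in WT 2 and WT 3. The gene that fell was Bmp1, the proteinase that cleaves the propeptide of Lox, at 107, 106 and 96.6 CPM in WT and 80.7, 70.7 and 84.4 CPM in rIAPP, with no overlap (-0.39 ± 0.0765 SE, adjusted p = 0.00147). Between hIAPP and rIAPP, Fn1 and Bmp1 were higher and Fmod and Pcolce lower in hIAPP.

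Of 14 collagen lysine and proline modification genes, 3 rose in hIAPP (median 0.16), which were the collagen chaperone Serpinh1 (0.53, adjusted p = 0.00611), Fkbp10 (1.07) and the prolyl 3-hydroxylase family gene Leprel2 (0.41). In rIAPP 6 rose and 1 fell (median 0.11), led by Leprel1 (1.46, adjusted p = 0.000550), the lysyl hydroxylase Plod2 (0.85) and Lepre1 (0.31). With WT 1 as the only WT library, in the fit without the 3 ribosomal-rich libraries, these medians were 0.22 in hIAPP and 0.14 in rIAPP. Of 7 copper transport genes, 0 passed in hIAPP, where Atp7a, the pump that loads copper onto secreted enzymes, was nearest (-0.39, adjusted p = 0.0546). In rIAPP 1 rose and 2 fell. These were the importer Slc31a1 (0.54), Atp7a (-0.72 ± 0.129 SE, adjusted p = 0.000729) and Cox17 (-0.38). Against hCAST, Slc31a1 was higher by 0.43 in rIAPP (adjusted p = 0.0210). Without the 3 ribosomal-rich libraries, which kept only WT 1, the copper list medians against WT were 0.12 in hIAPP and 0.07 in rIAPP.

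Of 5 tested genes for other amine oxidases and transglutaminases, the cross-linker Tgm2 rose (1.17, adjusted p = 0.0393) and F13a1 fell (-1.45, adjusted p = 0.0330) in hIAPP, and F13a1 fell in rIAPP (-2.22, adjusted p = 0.00194). Against hCAST, 2 of the 5 rose and 0 fell in hIAPP. In rIAPP 0 rose and 2 fell against hCAST, F13a1 among them (-1.63, adjusted p = 0.00995). Those calls were lost in the fit without the 3 ribosomal-rich libraries, rIAPP 2 among them, where 0 rose and 0 fell. The list medians against WT were 0.82 in hIAPP and -0.25 in rIAPP. Without the 3 ribosomal-rich libraries, which kept only WT 1, they were 1.29 and 0.52. Of 14 TGF-beta pathway genes, 2 rose in hIAPP (median 0.14), which were the receptor Tgfbr2 (1.04, adjusted p = 0.00242) and the ligand Tgfb3 (0.76). In rIAPP 1 rose, Tgfb3 (0.71), and 2 fell, among them the receptor Tgfbr1 (-0.73, adjusted p = 1.43e-06). Against hCAST, Tgfb3 was higher by 0.52 in rIAPP (adjusted p = 0.0416). That call was lost when the 3 ribosomal-rich libraries were left out, with 0 TGF-beta genes higher and 1 lower in rIAPP against hCAST. Without the 3 ribosomal-rich libraries the TGF-beta list medians against WT 1 were 0.05 in hIAPP and 0.14 in rIAPP. Between hIAPP and rIAPP, 4 were higher in hIAPP, with Tgfbr1 and Tgfbr2 having the smallest p. Of 8 hypoxia and Snail family factors, known regulators or partners of Lox and Loxl2, only Zeb2 rose in hIAPP (0.72, adjusted p = 0.0384) and only Epas1 in rIAPP (0.64, adjusted p = 0.00128). Beside the 11.9% of all genes called in hIAPP and 23.3% in rIAPP against WT, the TGF-beta and hypoxia counts did not stand out.

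In hIAPP_hCAST against hIAPP the medians of the matrix lists were below 0, but few genes passed. For fibrillar collagens the median was -1.10 with 0 of 9 called, the nearest being Col5a1 (-1.39, adjusted p = 0.0613). For elastic fibre genes it was -0.76 with 1 of 17 called, Mfap4 (-2.01, adjusted p = 0.0442), and for processing genes -1.16 with 2 of 10 called, Fn1 (-1.37, adjusted p = 0.0107) and Adamts2 (-1.23, adjusted p = 0.0336). All genes together had a median of 0.00, and 0.466% of them were called. None of the copper, modification, TGF-beta, hypoxia, collagen IV and amine oxidase lists held a called gene, by edgeR. Without hIAPP_hCAST 3 the fibrillar collagen median was -0.80 and that of the processing genes -0.92, again with 0 and 2 called, while 3 of 17 elastic fibre genes were called, at a median of -0.65.

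**Figure D5:**
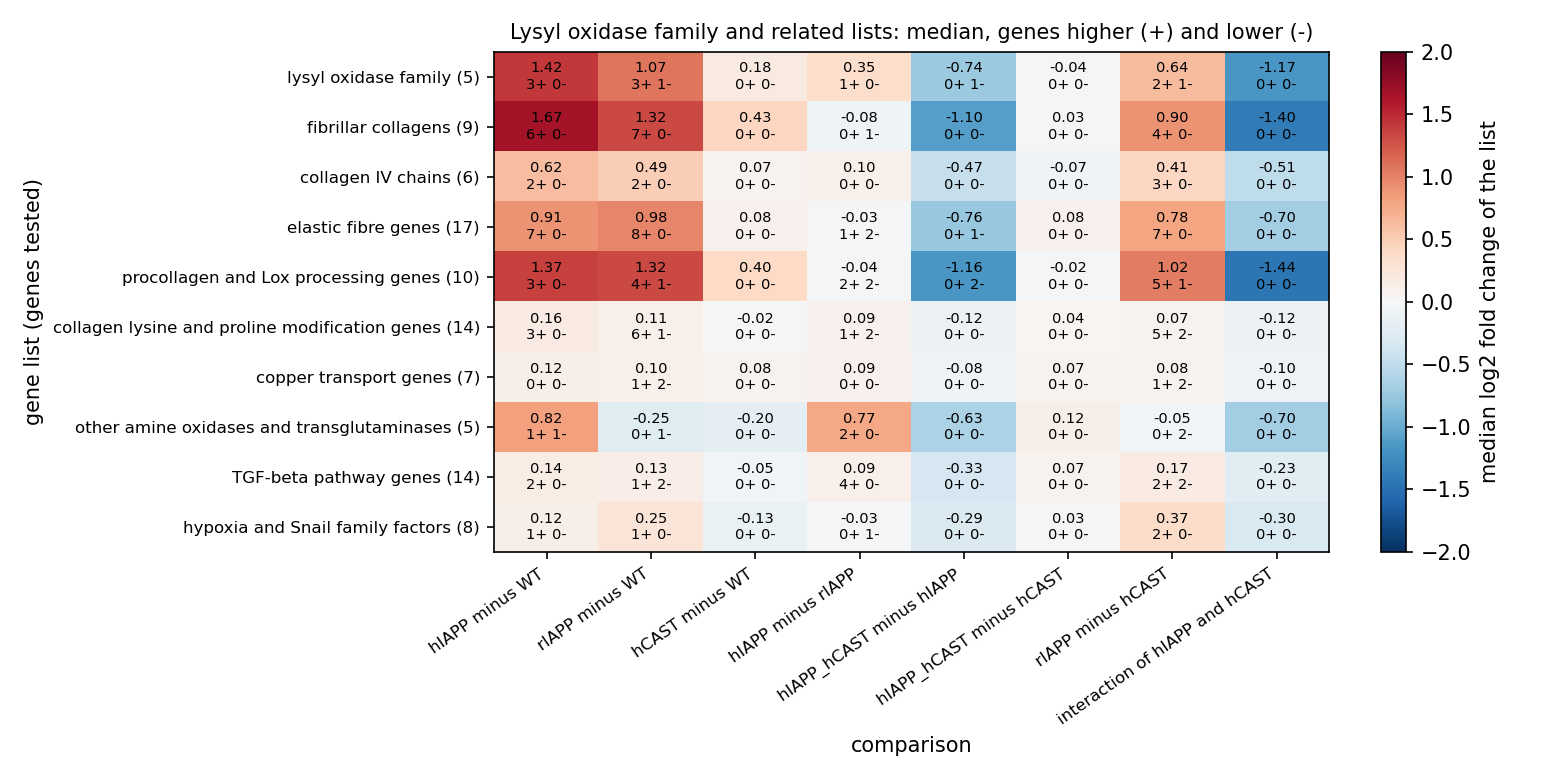
Rows are the lysyl oxidase family and 9 lists of related genes with the number tested, columns are the comparisons, and each cell gives the median log2 fold change (also as colour) and the numbers of genes higher (+) and lower (-). Medians were above 0 against WT in hIAPP and rIAPP and below 0 in hIAPP_hCAST minus hIAPP for the family and all lists but the other amine oxidases, whose median was -0.25 in rIAPP minus WT, and in hIAPP minus WT they were highest in the fibrillar collagens, the family and the processing genes.

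Members were also compared with all expressed genes by the likeness of their profiles, as Pearson correlation of log2 CPM over the 15 libraries, which share 5 groups and so are a description with no test. Closest to Loxl1 were Cilp (0.98), Htra3 (0.96) and Bgn (0.95), all genes of extracellular matrix proteins, then Kank2 and Ehbp1l1 (both 0.94). Cilp, a matrix protein first known from cartilage, was 24.0 ± 3.90 CPM in hIAPP, 25.3 ± 0.959 in rIAPP, 6.62 ± 0.915 in WT, 7.22 ± 0.794 in hCAST and 8.35 ± 3.45 in hIAPP_hCAST (SD, n = 3). It was thus high in the same 2 groups as Loxl1. Closest to Lox were Slco2b1 (0.98), an organic anion transporter, Serpina3n (0.97), a serine protease inhibitor, Sulf1, which edits heparan sulfate, Gpc3, a cell surface proteoglycan, and Pld1 (each 0.96).

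Closest to Loxl2 were Sdc3 (0.96), a syndecan, Coro2b (0.94), G6pdx, Tbc1d31 and Klf5 (each 0.93). Sdc3 ran from 23.2 to 28.3 CPM in rIAPP and from 42.5 to 65.7 in the other groups, low in the same libraries as Loxl2. For Loxl3 the closest were Capg (0.99), Thbs2, Ier5l and C1s2, at 0.98 or above, and these 4 share with Loxl3 a count of 0 in WT 2. Without the 3 ribosomal-rich libraries those values were 0.92 to 0.93. For Loxl4 none exceeded the 0.84 of Bmp2k. Among the members, Lox and Loxl1 were at 0.87, and Loxl2 was at -0.46 and -0.42 with them.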

How the data were processed

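Bulk RNA was measured in 15 islet libraries, 3 in each of 5 groups assigned from the labels. Per the labels' protocols, RNA was extracted with a column kit and made into libraries with ribosomal depletion and an amplification kit. Per the submitters' processing notes, STAR and HTSeq were used with GRCm38, and the authors deposited raw read counts per gene, summing to 28287011 to 40191501 per library, together with FPKM values, which scale each count by gene length and by a column total that includes ribosomal reads. Tool versions, the annotation and the strand setting are not given in the sources used here.

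From the deposited counts, edgeR 4.0.16 in R 4.3.3 was run with TMM scaling, its filter on low counts by group, and a robust quasi-likelihood fit with 1 coefficient per group over all 15 libraries. Of 24060 entries, 15460 were tested (common biological coefficient of variation 0.132), and Benjamini-Hochberg adjusted p below 0.05 was a call. The 8 comparisons were fitted as contrasts, SE and 95% intervals came from the quasi-likelihood F, and log2 fold changes of counts are edgeR's with a prior count. The fit was tested on simulated counts first. Alternatives were DESeq2 1.42.0, limma 3.58.1 with voom sample weights or on log2(FPKM + 1) and log2(FPKM + 0.1), other scaling, no filter, only the groups compared, and fits without single libraries or the 3 ribosomal-rich ones. The 5 members and the lists were chosen with earlier results of these data known. For each list the 3 genes with the smallest p were named. Genes beyond these 3 (Eln, Fbln5, Bmp1 in rIAPP, Adamts14, Pcolce between hIAPP and rIAPP, Msln, Mgp, C1qa, Bhlha15) and the fits with hCAST as control, and lists without doubted libraries, were chosen after their values were seen. For likeness, the 5 genes with the highest correlation were named among those with a mean of at least 1 CPM, predicted genes left out. Some genes that these rules name are not reported here. Sequences are not printed.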

Additional observations from a re-analysis of the deposited data

How the results depend on the processing

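Over 633 alternative values of the members, 571 kept direction and side of the threshold, 20 lost a call, 11 gained one and 31 changed sign, all of the last among differences not called or in the FPKM fits. No paired analysis was possible because the groups share no replicate numbers in the labels: numbers within a group follow the order of deposit. Low counts in WT limit Lox, Loxl3 and Loxl4, and with 3 libraries per group the intervals are wide.

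FPKM divides by totals that include ribosomal reads, so log2(FPKM + 1) and log2(FPKM + 0.1) moved the median of all genes in some comparisons. The 2 medians were 1.26 and 1.82 in hIAPP minus WT, and 0.80 and 1.27 in rIAPP minus WT. They were 1.26 and 1.84 in hCAST minus WT, and -0.39 and -0.52 in rIAPP minus hCAST. In hIAPP_hCAST minus hIAPP they were 0.04 and 0.05. In those 2 fits, in that order, Loxl2 was 1.03 and 1.66 in hIAPP minus WT, 0.19 and 0.44 in rIAPP minus WT, and 1.03 and 1.66 (1.655) in hCAST minus WT. Loxl4 was 0.0197 and 0.14 in rIAPP minus WT, 0.0637 and 0.44 in hCAST minus WT, and 0.000630 and 0.00955 in hIAPP_hCAST minus hCAST. Members called were then 2 and 2 in rIAPP minus WT (4 by edgeR), 3 and 4 in hCAST minus WT (0 by edgeR), 0 and 0 in hIAPP minus rIAPP and in hIAPP_hCAST minus hIAPP (1 by edgeR in each), and 1 and 0 in rIAPP minus hCAST (3 by edgeR).

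Without the 3 ribosomal-rich libraries 1 member was called in hIAPP minus WT. With only the groups compared, 0 were called in hIAPP_hCAST minus hIAPP, and Lox in hIAPP minus rIAPP was -0.00151. DESeq2 and voom each called 1 member, Loxl1, in the interaction. With voom, Lox in hIAPP minus rIAPP was -0.0308, and Loxl4 was 0.35 in hIAPP_hCAST minus hCAST, 0.00854 in rIAPP minus hCAST and 0.19 in the interaction. With hCAST as the control, Loxl2 in hIAPP was 0.0201. RLE size factors and TMM without the ribosomal-rich genes changed no member's call.

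Leaving out 1 library at a time, members called ranged from 1 (without WT 1) to 3 in hIAPP minus WT, 2 (without WT 1) to 4 in rIAPP minus WT, 0 to 1 (without hIAPP_hCAST 3) in hIAPP_hCAST minus hCAST, and 0 to 1 (without hIAPP_hCAST 2) in the interaction. Signs changed for Loxl1 (-0.0545 to 0.27) and Loxl4 (-0.31 to 0.16) in hCAST minus WT, Lox in hIAPP minus rIAPP (-0.12 to 0.14), Loxl1 (-0.31 to 0.10) and Loxl4 (-0.33 to 0.14) in hIAPP_hCAST minus hCAST, and Loxl2 in the interaction (-0.15 to 0.0773).

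Counts of all genes called by edgeR and over the alternatives were 1833 (383 to 12559) in hIAPP minus WT, 3599 (719 to 4197) in rIAPP minus WT, 3 (2 to 13310) in hCAST minus WT, 2009 (101 to 3476) in hIAPP minus rIAPP, 72 (2 to 289) in hIAPP_hCAST minus hIAPP, 116 (9 to 356) in hIAPP_hCAST minus hCAST, 3456 (111 to 5866) in rIAPP minus hCAST and 0 (0 to 50) in the interaction. With log2(FPKM + 1) the split of higher to lower genes was 12555 to 4 in hIAPP minus WT (969 to 864 by edgeR), 817 to 3 in rIAPP minus WT (1650 to 1949) and 13132 to 3 in hCAST minus WT.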

Other observations

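The human and rodent IAPP lines were also set side by side over the related gene lists, which puts no WT library into the contrast. Of all genes, 13% were called there. The 5 tested amine oxidase and transglutaminase genes had a median of 0.77 in hIAPP minus rIAPP, and 2 were called higher in hIAPP, the primary amine oxidases Aoc3 (1.07, adjusted p = 0.00740) and Aoc2 (0.81, adjusted p = 0.0216), by edgeR's quasi-likelihood test. Among the collagen modification genes, the prolyl hydroxylase P4ha2 was higher in hIAPP (0.45, adjusted p = 0.00193), while the prolyl 3-hydroxylase Leprel1 (-1.22, adjusted p = 0.000931) and the lysyl hydroxylase Plod2 (-0.78, adjusted p = 0.00620) were lower. Of the 17 elastic fibre genes, Ltbp1 was higher in hIAPP (a mean of 25.6 against 12.6 CPM, adjusted p = 0.00227), and Efemp2 (-0.60, adjusted p = 0.000691) and Mfap4 (-1.42, adjusted p = 0.0172) were lower. Col27a1 was the 1 fibrillar collagen gene called, lower in hIAPP (-0.73, adjusted p = 0.000897).

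Against hCAST, whose libraries were all deep, 4 of 9 fibrillar collagen genes and 3 of 6 collagen IV chains were higher in rIAPP. So were 7 of 17 elastic fibre genes, and 0 were lower in these lists. Of all genes, 10.6% were called higher and 11.8% lower there. Copper transport genes were 1 higher and 2 lower of 7 in that comparison, the same counts as against WT. The rIAPP group holds the ribosomal-rich rIAPP 2. Leaving out the 3 ribosomal-rich libraries, 2 of 9 fibrillar collagen genes, 2 of 6 collagen IV chains and 7 of 17 elastic fibre genes were higher. Of the copper transport genes 1 was then higher and 1 lower.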
